A study of Mus musculus with 6 samples.

Results

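Cholesterol and fatty acid synthesis and transport were examined through 49 genes chosen by their known roles: the enzymes of sterol synthesis, the SREBP control system, the enzymes of fatty acid synthesis, and the genes of cholesterol efflux and of lipid uptake and storage. Of these genes, 44 were measured by probe sets that carry exactly 1 gene symbol, among 19937 genes in all, and each was read from its brightest probe set. Acat2, Acsl1, Acsl3, Nr1h2 and Soat1 were not analysed here. The 6 Affymetrix arrays held RNA of lineage-depleted (Lin-) hematopoietic progenitors of the C57BL6 strain. All cells came from Rosa26rtTA mice, which carry the reverse tetracycline transactivator that activates Tet promoters in the presence of doxycycline. The serum-free medium held 4 cytokines, namely interleukin 3 at 20 ng/ml and, each at 50 ng/ml, interleukin 11, stem cell factor and Flt3 ligand. They were transduced 24 h after isolation with a lentiviral Tet vector for EVI1 and EGFP joined by an IRES (3 arrays, EVI1), or for EGFP alone (3 arrays, EGFP). Doxycycline (1 µg/ml) was given to both groups 24 h after transduction. EGFP-positive cells were sorted 20 h after doxycycline by the design text, and RNA was taken 24 h after doxycycline by the treatment protocol. No age of the mice was stated.

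Cells make cholesterol from acetyl-CoA through mevalonate, squalene and lanosterol, and make fatty acids from the same acetyl-CoA. When sterols in the endoplasmic reticulum are low, the transport protein SCAP carries the SREBP transcription factors to the Golgi, where they are cleaved and then switch on the synthesis genes, while INSIG proteins hold SCAP back when sterols are high. Excess sterol, in the form of oxysterols, activates the nuclear receptors LXR alpha and LXR beta, whose targets include the efflux pumps ABCA1 and ABCG1. Dividing blood progenitors need both lipids for membranes, and macrophages rely on efflux to dispose of the cholesterol they take up.

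All values are log2 intensities, so a difference of 1 is a 2-fold change, and each difference is EVI1 minus EGFP with its standard error (SE) from limma. A gene is said to rise or fall at a limma adjusted p (Benjamini-Hochberg over all genes) under 0.05. Across genes, any pair of arrays from the same group correlated at 0.976 to 0.990 (Pearson's r), and pairs from different groups at 0.942 to 0.959. Mecom, the gene that encodes EVI1, read 6.39, 7.53 and 6.86 in the EGFP arrays against 6.29, 6.18 and 6.49 in the EVI1 arrays. It was thus not higher under EVI1 (-0.60 ± 0.26, limma adjusted p = 0.166), and whether its probes read the vector's sequence is not known here, so groups are called by their labels. Among progenitor and granulocyte genes Mpo averaged 13.01 in the EGFP arrays, while 5 of 8 lymphoid markers were dim in both groups and 1, the interleukin 7 receptor gene Il7r, fell by 2.46 on the log2 scale from 8.81 (limma adjusted p = 0.000536). Dim means below the level exceeded by only 5% of 1027 olfactory receptor genes, which are not expected in blood cells. That level was 6.95 in the EGFP and 6.99 in the EVI1 arrays. Mecom, with means of 6.92 and 6.32, was dim in both groups, and its further probe set differed by -0.23. Since no label ties replicates to separate mice or cultures, p-values measure only the spread between these arrays.

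Sterol and fatty acid synthesis genes were mostly lower in the EVI1 arrays, and the 5 measured genes of the efflux and LXR list were higher. Of the 44 genes, 15 fell (34.1%), 5 rose (11.4%) and 24 did not pass. Among all genes 9.18% fell and 9.06% rose, and among the 9969 genes at or above the median level, where 43 of the 44 lie, 15.7% fell and 15% rose. The share that fell was therefore above both backgrounds, and the share that rose was not above that of bright genes. The log2 difference was below 0 for 35 of the 44 genes (79.5%), against 49.0% of all genes, and the median was -0.34, against 0.006 for all genes. All arrays of the EVI1 group lay below those of the EGFP group for 22 genes (50%, against 16.5% of all genes). They lay above them for 8 (18.2%, against 16.1%), and 32.6% of all genes lay apart in either direction. The number that fell was 7 without EVI1 replicate 3, 8 without EGFP replicate 3 and 9 without EVI1 replicate 1. Changes of at least 2-fold that passed the test were found for 8 genes (18.2%, against 5.9% of all genes). These were the falls of Lss, Hsd17b7, Dhcr7, Lipg and Lpl (3.03% of all genes fell so far) and the rises of Apoe and Cd36 and, at 3.99-fold, Abca1 (2.87% of all genes rose so far).

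**Figure D1:**
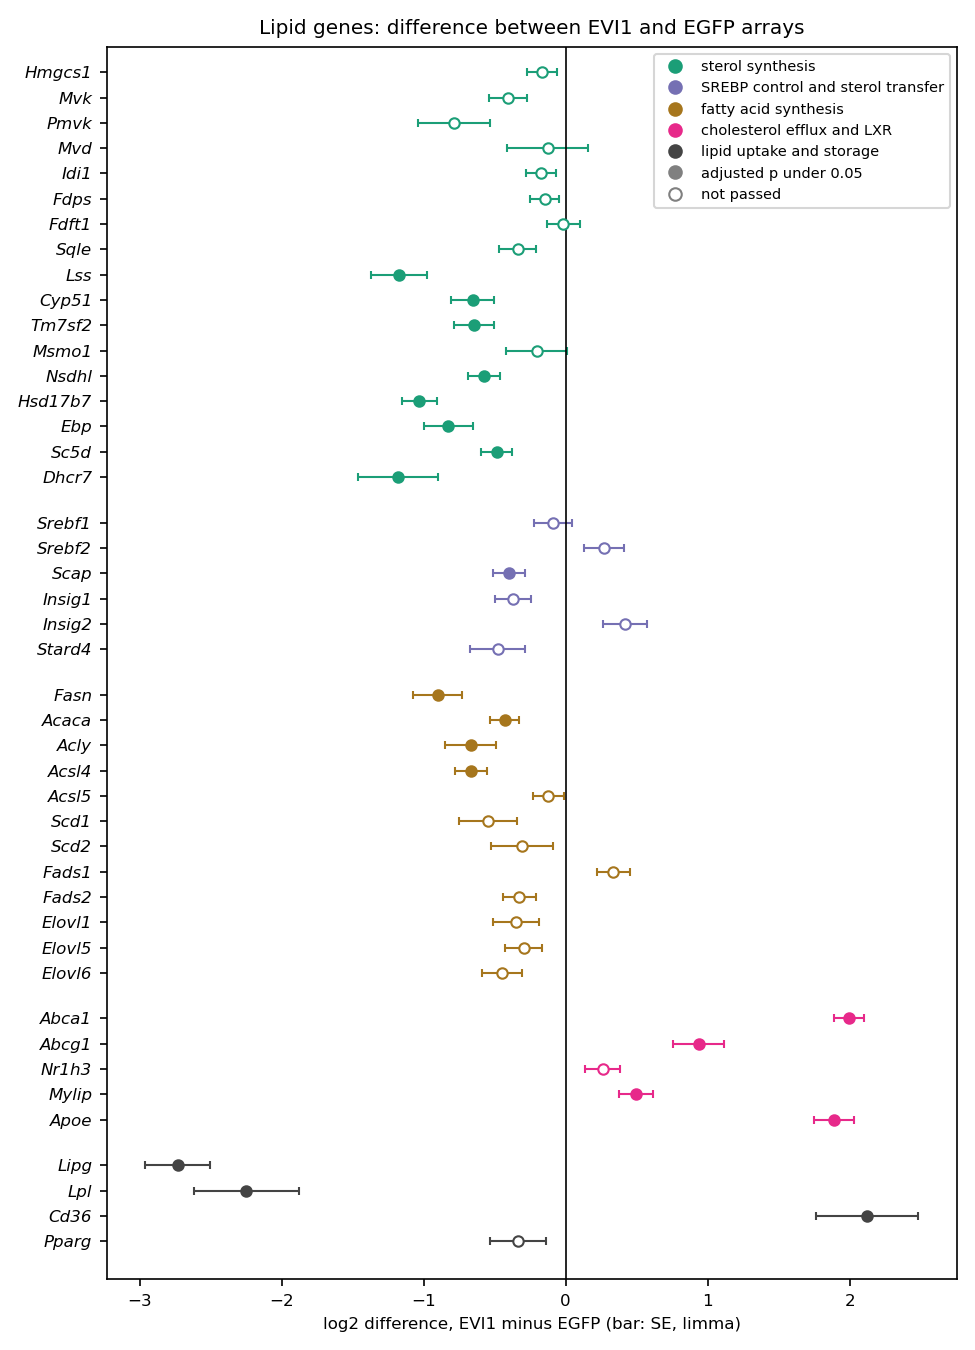
Log2 difference (EVI1 minus EGFP, horizontal axis) of each of the 44 measured genes, grouped by role, with bars for the limma SE and filled points for adjusted p under 0.05. Every sterol synthesis gene lies below 0 and every efflux and LXR gene above 0; Lipg and Lpl lie lowest and Cd36 highest.

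Sterol synthesis genes fell from lanosterol synthase onward, and none of the earlier enzymes passed the test. All 17 measured enzymes had a difference below 0, and the median was -0.49. Of the 17, 8 fell (47.1%, against 9.18% of all genes) and 9 did not pass. In 12 of them (70.6%) all EVI1 arrays lay below all EGFP arrays, against 16.5% of all genes. With the replicate number as a block, 11 fell (11% of all genes fell in that fit), and 3, 4 and 5 fell without EVI1 replicate 3, EGFP replicate 3 and EVI1 replicate 1. The split of the pathway at lanosterol synthase that follows was drawn with the values known and was not tested.

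The early enzymes carry acetyl-CoA units to squalene epoxide, and none of the 8 measured passed, with a median of -0.17. Hmgcs1, which makes HMG-CoA, read 11.20, 11.39 and 11.29 in the EGFP arrays against 11.10, 11.23 and 11.05 in the EVI1 arrays, so the groups overlapped (-0.17 ± 0.11). Mevalonate kinase (Mvk) read 8.15, 8.56 and 8.31 against 7.80, 8.003 and 7.99. Phosphomevalonate kinase (Pmvk) read 8.47, 9.61 and 8.81 against 8.10, 8.23 and 8.20. In both kinases the groups did not overlap, and EGFP replicate 2 was the highest array. Their differences were -0.41 ± 0.13 for Mvk (limma adjusted p = 0.0764, 0.0335 with a replicate block) and -0.79 ± 0.26 for Pmvk (0.0728, 0.0325 with the block). Squalene epoxidase (Sqle), the oxygen-using step that closes this stretch, differed by -0.34 ± 0.13 (limma adjusted p = 0.127, 0.0491 with the block). The other early enzymes had small differences: -0.13 ± 0.29 for the decarboxylase Mvd, -0.17 ± 0.10 for the isomerase Idi1, -0.15 ± 0.10 for farnesyl diphosphate synthase (Fdps) and -0.02 ± 0.12 for squalene synthase (Fdft1). Idi1 and Fdft1 each have a further probe set, with differences of -0.31 and 0.005. EGFP replicate 2 stood apart for Mvd as well, at 9.82 against 8.66 and 8.75 in the other EGFP arrays, and without it the difference was 0.24.

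From lanosterol synthase to 7-dehydrocholesterol reductase 8 of 9 enzymes fell (88.9%, against 9.18% of all genes), with a median of -0.66. Lanosterol synthase (Lss), which folds squalene epoxide into the first sterol, read 9.58, 10.31 and 9.84 in the EGFP arrays against 8.52, 8.97 and 8.71 in the EVI1 arrays. All EVI1 arrays were below the lowest EGFP array, and the fall was 2.26-fold (-1.18 ± 0.20, limma adjusted p = 0.00476). Hsd17b7, the 3-ketosteroid reductase of C4 demethylation, read 10.08, 10.41 and 10.12 against 9.09, 9.23 and 9.20. The groups were far apart relative to their spread, and it fell 2.04-fold (-1.03 ± 0.12, limma adjusted p = 0.000903). Dhcr7, which makes cholesterol from 7-dehydrocholesterol, read 8.98, 9.93 and 9.41 against 7.92, 8.78 and 8.09. It fell by the same 2.26-fold as Lss, with a wider spread in both groups (-1.18 ± 0.28, limma adjusted p = 0.0217). It did not pass without EGFP replicate 3 (limma adjusted p = 0.0665), EVI1 replicate 1 (0.0728) or EVI1 replicate 3 (0.0983).

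The remaining late enzymes moved less. The isomerase Ebp went from 8.46 ± 0.27 to 7.64 ± 0.24 (SD, n = 3 arrays each), the lanosterol demethylase Cyp51 from 11.19 ± 0.20 to 10.53 ± 0.23 and the sterol reductase Tm7sf2 from 8.61 ± 0.20 to 7.96 ± 0.16. Nsdhl, a decarboxylase of C4 demethylation, was nearly constant in the EGFP arrays, at 11.67, 11.65 and 11.66, and read 11.01, 11.26 and 10.98 in the EVI1 arrays (-0.58 ± 0.11, limma adjusted p = 0.00876). The desaturase Sc5d differed by -0.49 ± 0.11 (limma adjusted p = 0.0152). The calls of Lss, Nsdhl and Hsd17b7 held in each of the 14 alternative analyses, while those of Cyp51, Tm7sf2, Ebp and Sc5d were each lost without at least 1 of EGFP replicate 3, EVI1 replicate 1 and EVI1 replicate 3, at adjusted p between 0.0517 and 0.0816. Msmo1, the C4 methyl oxidase, was the late enzyme that did not pass (-0.20 ± 0.21), with EGFP replicate 2 at 11.89 against 11.31 and 11.10, and without that array its difference was 0.03.

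**Figure D2:**
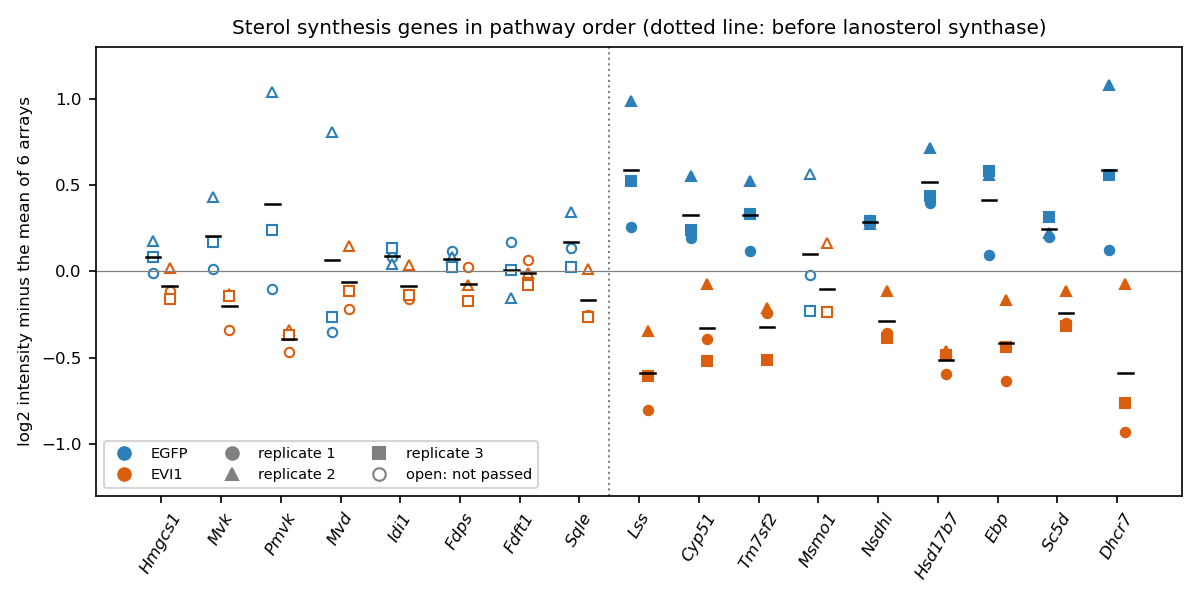
Log2 intensity minus the mean of the 6 arrays (vertical axis) for the 17 sterol synthesis genes in pathway order, with 1 symbol shape per replicate, black lines for group means, and filled symbols for genes that passed. The groups part most clearly to the right of the dotted line, and the triangles of replicate 2 lie high in both groups.

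The sterol genes also moved with the replicate number. EVI1 replicate 2 was the highest EVI1 array for 15 of the 17 genes and EGFP replicate 2 the highest EGFP array for 11 of them. The mean over the 17 genes, after subtraction of each gene's own mean, was 0.10, 0.48 and 0.20 in EGFP replicates 1, 2 and 3 and -0.35, -0.10 and -0.34 in the EVI1 replicates. EVI1 replicate 2 thus came nearest to the EGFP arrays, and the lowest EGFP array still lay above it.

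The replication markers were lower as well: all 10 (Mcm2 to Mcm7, Pcna, Rrm2, Tyms and Cdc6) fell, with mean levels of 10.5 to 10.7 in the EGFP and 9.19 to 9.46 in the EVI1 arrays. Neutrophil markers were lower, with 7 of 13 down (53.8%) and none up (10.5 to 11.1 against 8.86 to 9.47). The other 6 did not pass, among them the bright S100a9 (-0.44), S100a8 (-0.19) and Lcn2 (0.46, the only difference above 0). With a replicate block 9 of the 13 fell (11% of all genes fell in that fit), S100a9 included. Mast cell and basophil markers were also lower, with 8 of 10 down (80%) and none up (9.87 to 10.5 against 8.56 to 8.71). Among all genes 9.18% fell. The part of these replication, neutrophil, mast cell and basophil genes in the lower synthesis genes was not tested. In RNA of a mixed population, fewer cells of a type and less RNA per cell cannot be told apart.

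Promoters of the synthesis and efflux genes were read from RefSeq (build GRCm38.p6), as 250 bases before and 50 after each annotated start, to show which known promoter elements stand in them. Of the 44 genes, 34 matched, with 48 promoters. The motifs searched on both strands were the CCAAT box bound by NF-Y (CCAAT, or ATTGG on the opposite strand), the E-box CACGTG, the GC box GGGCGG bound by Sp1 and a sterol regulatory element core, TCACNCCAC. A CCAAT box stood in 14 of 17 promoters of sterol synthesis genes (82.4%), in at least 1 promoter of each of the 14 genes matched, and in 37.4% of all 32851 promoters of the table. The GC box stood in 14 of the 17 (82.4%, against 35.7%), the E-box in 3 (17.6%, against 7.15%) and the sterol element core in 1 (5.88%, against 1.24%), that of Hmgcs1. The 4 matched efflux and LXR genes had a CCAAT box in 1 of 7 promoters, and so in 1 of the 4 genes (25%, against 41.1% of all genes). Several of the 7 belong to Apoe or to Nr1h3, and some of these share bases. CCAAT boxes stood in genes that fell and in genes that did not pass alike, so these letters do not part the early from the late enzymes. The E-box stood in 3 of 9 late genes (33.3%, against 8.09% of all genes) and in 0 of 5 early genes. Only 5 of the 8 measured early enzymes had a promoter in the table, and the early and late counts were not tested. No motif overlapped another kind in the sequences shown, in which the capitals mark CCAAT boxes and E-boxes, the sterol element core and, in Abca1, a direct repeat described with the efflux genes. Lss and Hsd17b7 are shown as late enzymes that fell, Hmgcs1 as an early enzyme that did not pass, and Abca1 as an efflux gene that rose.
Lss, chr10:76531355-76531654, plus strand: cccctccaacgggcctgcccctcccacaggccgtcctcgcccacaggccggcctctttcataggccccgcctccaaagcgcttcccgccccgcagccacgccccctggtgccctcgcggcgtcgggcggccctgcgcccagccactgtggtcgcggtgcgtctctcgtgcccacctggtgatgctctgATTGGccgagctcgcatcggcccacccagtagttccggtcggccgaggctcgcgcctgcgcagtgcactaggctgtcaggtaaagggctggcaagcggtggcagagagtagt
Hsd17b7, chr1:169969156-169969455, minus strand: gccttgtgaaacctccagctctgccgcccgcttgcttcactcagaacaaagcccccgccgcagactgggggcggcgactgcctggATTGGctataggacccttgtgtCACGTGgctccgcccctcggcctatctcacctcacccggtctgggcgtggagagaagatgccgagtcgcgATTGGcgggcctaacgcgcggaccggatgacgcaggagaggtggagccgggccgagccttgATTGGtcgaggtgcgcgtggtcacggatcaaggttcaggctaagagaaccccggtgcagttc
Hmgcs1, chr13:119690101-119690400, plus strand: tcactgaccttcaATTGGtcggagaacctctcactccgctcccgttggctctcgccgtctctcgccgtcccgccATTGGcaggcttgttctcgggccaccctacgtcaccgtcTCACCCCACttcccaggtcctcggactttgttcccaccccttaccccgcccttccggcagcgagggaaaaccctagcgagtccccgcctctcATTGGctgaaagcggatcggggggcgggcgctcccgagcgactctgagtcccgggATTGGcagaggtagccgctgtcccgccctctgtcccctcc
Abca1, chr4:53159846-53160145, minus strand: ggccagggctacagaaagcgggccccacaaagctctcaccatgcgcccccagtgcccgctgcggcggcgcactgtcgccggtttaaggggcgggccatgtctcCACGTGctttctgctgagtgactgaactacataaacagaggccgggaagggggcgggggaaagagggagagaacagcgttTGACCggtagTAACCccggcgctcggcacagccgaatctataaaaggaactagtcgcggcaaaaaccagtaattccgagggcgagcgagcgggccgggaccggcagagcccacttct

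Of the 6 genes of SREBP control and sterol transfer 1 fell and 5 did not pass, and the median was -0.23. The share that fell (16.7%) was near that of genes at or above the median level (15.7%), against 9.18% of all genes. With a replicate block 3 fell (Scap, Insig1 and Stard4) and 1 rose (Insig2). In that fit 11% of all genes fell and 10.9% rose. Srebf1, whose products drive fatty acid synthesis, read 8.35, 8.75 and 8.54 in the EGFP and 8.33, 8.50 and 8.55 in the EVI1 arrays, which overlap throughout (-0.09 ± 0.13). Srebf2, the main driver of sterol synthesis, read 9.72, 10.17 and 9.82 against 10.07, 10.27 and 10.18, a difference of 0.27 ± 0.14 opposite in sign to that of the synthesis genes (limma adjusted p = 0.257, and 0.0438 without EGFP replicate 2). Scap went from 9.63 ± 0.15 to 9.23 ± 0.05 (SD, n = 3 arrays each) and fell by 0.40 ± 0.11 on the log2 scale (limma adjusted p = 0.0419). That call was lost in each of the 6 analyses that left out 1 array (adjusted p from 0.0509 to 0.137) and with trend and robust estimation (0.0755).

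The paralogous SREBP inhibitors differed in opposite directions without passing the test. Insig1, itself a target of SREBP, read 11.71, 11.51 and 11.77 in the EGFP arrays against 11.46, 11.11 and 11.30 in the EVI1 arrays (-0.37 ± 0.13, limma adjusted p = 0.0899, 0.0426 with a replicate block). Insig2, whose RNA depends less on SREBP, read 8.93, 9.04 and 8.67 against 9.53, 9.31 and 9.05 (0.42 ± 0.15, limma adjusted p = 0.109, 0.0360 with the block). Neither pair of groups overlapped, with Insig1 lower and Insig2 higher in the EVI1 arrays. Stard4, a carrier of cholesterol between membranes and a sterol-regulated gene, differed by -0.48 ± 0.20 (limma adjusted p = 0.148, 0.0146 with the block).

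Among 10 measured genes of SREBP processing and sterol-sensed protein turnover 1 rose (10%, against 9.06% of all genes) and 9 did not pass, with a median of -0.02. The gene that rose was Rnf145, a ubiquitin ligase and LXR target that acts on Scap (0.44 ± 0.11, limma adjusted p = 0.0232). The COPII coat gene Sec23a differed by 0.49 ± 0.16 (limma adjusted p = 0.0751, 0.0270 with a replicate block) and the ligase Rnf139 by 0.37 ± 0.13 (limma adjusted p = 0.0977). The processing protease Mbtps1 differed by -0.24 ± 0.09.

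Among fatty acid synthesis genes, RNA of the entry steps Acly, Acaca and Fasn was lower in the EVI1 arrays. Of 12 measured genes 4 fell (33.3%, against 9.18% of all genes and 15.7% of those at or above the median level) and 8 did not pass. The median was -0.39, with 11 of 12 differences below 0. ATP citrate lyase (Acly), which makes cytosolic acetyl-CoA, read 10.30, 10.96 and 10.51 in the EGFP arrays against 9.79, 10.13 and 9.84 in the EVI1 arrays (-0.67 ± 0.18, limma adjusted p = 0.0352). Acetyl-CoA carboxylase (Acaca), the committed step to malonyl-CoA, read 10.32, 10.48 and 10.35 against 9.91, 10.03 and 9.92 (-0.43 ± 0.10, limma adjusted p = 0.0215), and its further probe set differed by -0.46. Fatty acid synthase (Fasn), which builds palmitate, read 8.98, 9.33 and 9.43 against 8.04, 8.48 and 8.52 and fell most among the 12, by 1.87-fold (-0.90 ± 0.17, limma adjusted p = 0.00839). In all of these genes the groups did not overlap. The calls of Acly and Acaca were lost without EGFP replicate 3, EVI1 replicate 1 or EVI1 replicate 3, at adjusted p between 0.0571 and 0.129.

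The enzymes that activate, desaturate and elongate fatty acids were less uniform. Acsl4, the acyl-CoA synthetase that prefers arachidonate, read 10.78, 10.55 and 10.66 in the EGFP arrays against 9.99, 10.12 and 9.87 in the EVI1 arrays and fell by 0.67 ± 0.12 on the log2 scale (limma adjusted p = 0.00527), while its relative Acsl5 differed by -0.12 ± 0.11. The stearoyl-CoA desaturases Scd1 (-0.55 ± 0.20, limma adjusted p = 0.114) and Scd2 (-0.31 ± 0.22) overlapped between groups. The desaturases of polyunsaturated fatty acids differed in sign. Fads1 read 10.14, 10.05 and 10.34 against 10.41, 10.62 and 10.51 (0.34 ± 0.12, limma adjusted p = 0.0942), and Fads2 read 11.33, 11.66 and 11.54 against 11.11, 11.23 and 11.20 (-0.33 ± 0.12, limma adjusted p = 0.101). In neither did the groups overlap, and neither passed the test. The elongases Elovl1 (-0.35 ± 0.16), Elovl5 (-0.30 ± 0.13) and Elovl6 (-0.45 ± 0.14) did not pass either. Elovl6, which extends palmitate, was closest at limma adjusted p = 0.0582 and passed with a replicate block (0.0498). Whether probes of the paralogs hybridise to each other's transcripts was not tested.

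Among 20 further genes of fatty acid synthesis and elongation 3 fell (15%, against 9.18% of all genes) and 1 rose (5%, against 9.06%). The other 16 did not pass, and the median was -0.08. The falls were 3 enzymes that act with the elongases, the ketoreductase Hsd17b12 (-0.75 ± 0.13, limma adjusted p = 0.00514), the dehydratase Hacd3 (-0.62 ± 0.15) and the enoyl reductase Tecr (-0.42 ± 0.12). The other dehydratases measured, Hacd1 (-0.23) and the brighter Hacd2 (0.19), did not pass. Malic enzyme (Me1), a source of NADPH, rose by 0.96 ± 0.14 (limma adjusted p = 0.00249). The acetyl-CoA synthetase Acss2 differed by 0.57 ± 0.17 (limma adjusted p = 0.0519, 0.0494 with the block) and the citrate carrier Slc25a1 by -0.50 ± 0.17 (0.0804, 0.0340 with the block).

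The 5 measured genes of the efflux and LXR list were higher in every EVI1 array. Of these 4 rose (80%, against 9.06% of all genes) and 1 did not pass. The median was 0.94, and in all 5 the EVI1 arrays lay above all EGFP arrays, against 16.1% of all genes. Abca1, the pump that loads cholesterol on apolipoproteins, read 6.91, 6.79 and 7.02 in the EGFP arrays against 8.85, 8.87 and 8.98 in the EVI1 arrays. The spread within each group was small beside the gap, and Abca1 rose 3.99-fold (2.00 ± 0.11, limma adjusted p = 4.15e-05). Its EGFP mean of 6.91 was dim, so the size of this rise is uncertain. Apoe, the apolipoprotein that macrophages secrete to accept cholesterol, read 8.52, 8.65 and 8.86 against 10.79, 10.41 and 10.49 and rose 3.70-fold (1.89 ± 0.14, limma adjusted p = 0.000160). Abcg1, which passes cholesterol to mature lipoprotein particles, read 8.81, 9.15 and 8.46 against 9.59, 9.80 and 9.84 and rose 1.91-fold (0.94 ± 0.18, limma adjusted p = 0.00792). Outside this list, Abcg4 (-0.22), Abca7 (-0.04) and the receptor Scarb1 (-0.06), counted below with sterol transport, did not pass. For Abcg4 all EVI1 arrays lay below all EGFP arrays.

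Mylip (Idol), the LXR-induced ligase that degrades lipoprotein receptors, read 8.07, 8.21 and 7.87 in the EGFP and 8.56, 8.59 and 8.48 in the EVI1 arrays (0.49 ± 0.12, limma adjusted p = 0.0211). The groups did not overlap, yet the call was lost without any 1 of the arrays except EGFP replicate 2, at adjusted p from 0.0512 to 0.0755. Nr1h3, which encodes LXR alpha, read 7.13, 6.79 and 7.13 against 7.23, 7.27 and 7.33 and did not pass (0.26 ± 0.12, limma adjusted p = 0.218). It was the faintest of the 5 on average, just above the dim level. The calls of Abca1, Abcg1 and Apoe held in each alternative analysis.

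LXR binds direct repeats of a half-site 4 bases apart. A permissive form of it, TNACC followed after any 5 bases by TNACC, on either strand, was added after the promoter of Abca1 had been read, so its match in Abca1, from 67 to 53 bases before the start, is no independent finding. It occurs in 4 of the 48 promoters (8.33%; Abca1, Elovl1, Fasn and Srebf1) and in 0.718% of all promoters in the table. The 8.33% counts the Abca1 match, which was seen before the form was chosen, and the Fasn match has the same letters. The gap between 8.33% and 0.718% therefore does not measure enrichment, and none was tested. The 4 genes with a match moved differently: Abca1 rose, Fasn fell, and Srebf1 and Elovl1 did not pass.

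**Figure D3:**
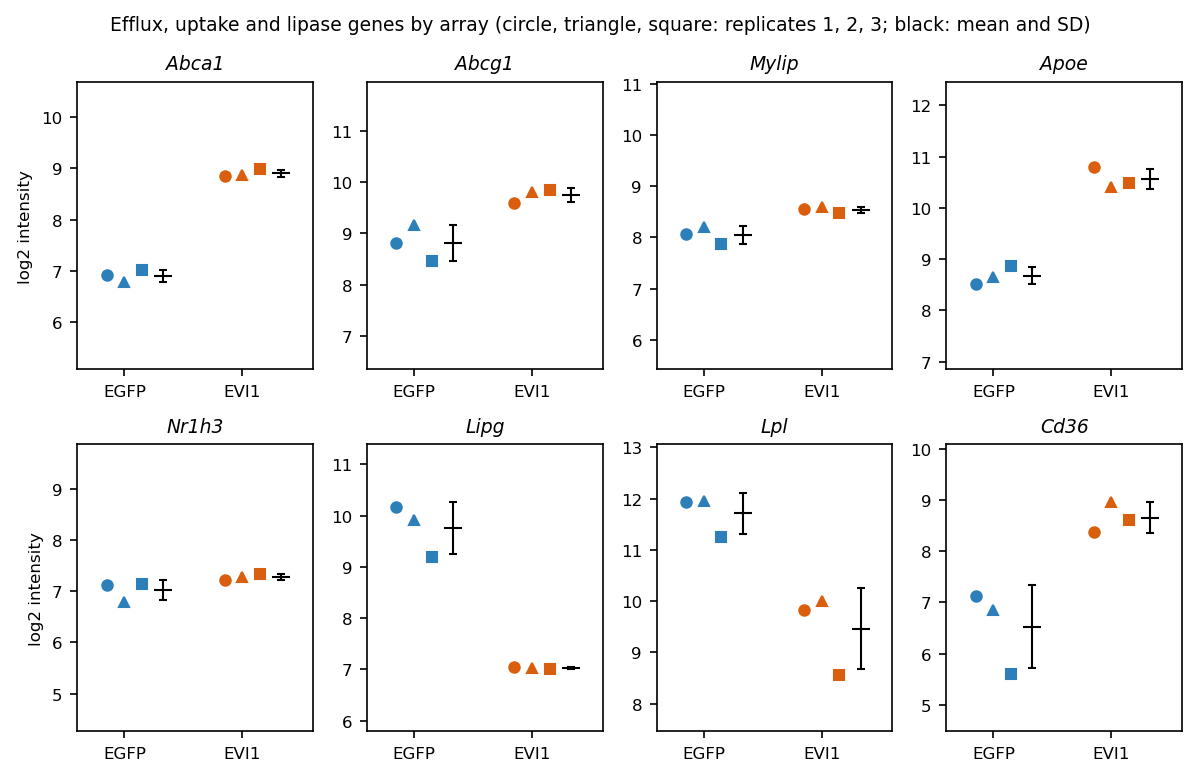
Log2 intensity (vertical axis, the same span in every panel) by group for the efflux and LXR genes and for Lipg, Lpl and Cd36, with 1 symbol shape per replicate and black bars for mean and SD of 3 arrays. Abca1, Apoe and Cd36 lie higher and Lipg and Lpl lower in all 3 EVI1 arrays, and Nr1h3 differs little.

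Set against each other, the sterol synthesis list and the efflux and LXR list moved apart in every array. The median difference of the efflux genes exceeded that of sterol synthesis by 1.42 on the log2 scale. After subtraction of each gene's own mean, the mean of the efflux genes minus that of the sterol genes was -0.66, -1.01 and -0.79 in EGFP replicates 1, 2 and 3 and 0.91, 0.64 and 0.91 in the EVI1 replicates. The efflux genes contributed nearly constant values, -0.53 to -0.58 in the EGFP and 0.54 to 0.58 in the EVI1 arrays, while the sterol genes varied by replicate. Both sides were chosen with earlier results of these arrays known, so the contrast is a description and has no test.

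Lipases and lipid uptake showed the widest spread of differences. Among the 4 measured here, 2 fell (50%, against 9.18% of all genes), 1 rose (25%, against 9.06%) and Pparg did not pass. Endothelial lipase (Lipg), a secreted phospholipase of high-density lipoproteins, read 10.17, 9.91 and 9.19 in the EGFP arrays against 7.04, 7.02 and 7.01 in the EVI1 arrays, just above the dim level. It fell 6.65-fold, the largest change among the 44 genes (-2.73 ± 0.23, limma adjusted p = 0.000230). Lipoprotein lipase (Lpl), which frees fatty acids from triglyceride-rich particles, read 11.93, 11.96 and 11.25 against 9.83, 10.002 and 8.56 and fell 4.76-fold (-2.25 ± 0.37, limma adjusted p = 0.00421). Replicate 3 was the lowest array of its group for both lipases. Cd36, a scavenger receptor that takes up fatty acids and oxidised lipoproteins, went the other way, with 7.13, 6.85 and 5.60 against 8.37, 8.97 and 8.62. It rose 4.36-fold (2.12 ± 0.36, limma adjusted p = 0.00491), and because its EGFP mean of 6.53 was dim the size of the rise is uncertain. Pparg, the nuclear receptor that controls Cd36 and Lpl in fat cells and macrophages, overlapped between groups (-0.33 ± 0.20, limma adjusted p = 0.345).

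Macrophage markers, given here because macrophages express Abca1, Apoe, Cd36 and Lpl, moved in both directions. Of 15 measured 4 rose (26.7%, against 9.06% of all genes), 2 fell (13.3%, against 9.18%) and 9 did not pass. Mean levels were 7.95 to 8.42 in the EGFP and 8.28 to 8.53 in the EVI1 arrays. The brightest was Cd68, which rose by 1.16 ± 0.19, and Mrc1 rose by 0.99 ± 0.23. The efferocytosis receptor Mertk rose by 2.91 ± 0.21 from a dim EGFP mean and Mpeg1 by 1.21 ± 0.21, whereas the receptor Csf1r fell by 1.16 ± 0.27 and Cd14 by 0.85 ± 0.25. Marco, Vsig4 and C1qc were dim in both groups. With a replicate block 5 of the 15 fell (11% of all genes fell in that fit). The block added Adgre1 (-1.08, limma adjusted p = 0.0845, 0.00233 with the block), Fcgr1 (-0.37, 0.0444 with the block) and Cx3cr1 (-0.39, 0.0278 with the block). Cd36 is also made by erythroid cells and platelets. Of 7 erythroid markers 2 rose (28.6%, against 9.06% of all genes), the anion exchanger Slc4a1 (1.45 ± 0.21) and Epor (0.46 ± 0.12). The other 5 did not pass and went both ways: Gata1 (0.22), Klf1 (0.09), Tfrc (-0.26), Alas2 (-0.19) and Ermap (-0.17). The mean levels of the 7 erythroid markers were 8.22 to 8.29 in the EGFP and 8.44 to 8.56 in the EVI1 arrays, and none was dim. Of 5 megakaryocyte markers Ppbp (1.37 ± 0.21) and Vwf (0.38 ± 0.10) rose (40%, against 9.06% of all genes). Pf4 fell by 1.41 ± 0.22 (20%, against 9.18%), 2 did not pass, and the mean levels overlapped (9.12 to 9.43 against 9.24 to 9.39). The part of these macrophage, erythroid and megakaryocyte genes in the efflux and uptake result was not tested. Fat cell and liver markers did not pass in any case, and Adipoq and Alb were dim in both groups.

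Other genes of sterol traffic moved in both directions. Among 21 measured lipoprotein receptors and sterol transport genes 7 rose (33.3%, against 9.06% of all genes) and 2 fell (9.52%, against 9.18%). The other 12 did not pass, and the median was -0.04. Rxra, the obligate partner of LXR, rose by 1.13 ± 0.17 (limma adjusted p = 0.00265). The lysosomal cholesterol exporters Npc1 (0.60 ± 0.15) and Npc2 (0.58 ± 0.13) both rose, as did the sterol carriers Stard3 (0.61 ± 0.12) and Stard5 (0.47 ± 0.09). Of the oxysterol-forming enzymes Cyp27a1 rose by 0.56 ± 0.14 and Ch25h by 0.59 ± 0.14, the latter from means that were dim in both groups. The falls were Gramd1b, which brings plasma membrane cholesterol to the endoplasmic reticulum (-1.12 ± 0.18, limma adjusted p = 0.0035), and the lipoprotein receptor Lrp8 (-0.82 ± 0.17, limma adjusted p = 0.0121).

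Fatty acid oxidation genes lay above 0 for 15 of 16 measured, with a median of 0.32. Of these 4 rose (25%, against 9.06% of all genes) and 12 did not pass. With a replicate block 7 rose (10.9% of all genes rose in that fit). The carnitine palmitoyltransferases Cpt1a (0.86 ± 0.15) and Cpt2 (1.09 ± 0.14, limma adjusted p = 0.00145), which carry fatty acids into mitochondria, and the acyl-CoA dehydrogenases Acadl (0.95 ± 0.11, limma adjusted p = 0.0008) and Acadvl (0.91 ± 0.14) rose. The 3 added with the block were the carnitine carrier Slc25a20 (0.62), Acadm (0.46) and the coactivator Ppargc1a (0.52, dim in both groups). Replicate 2 was the highest array of its group here, as it was for the sterol genes.

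**Figure D4:**
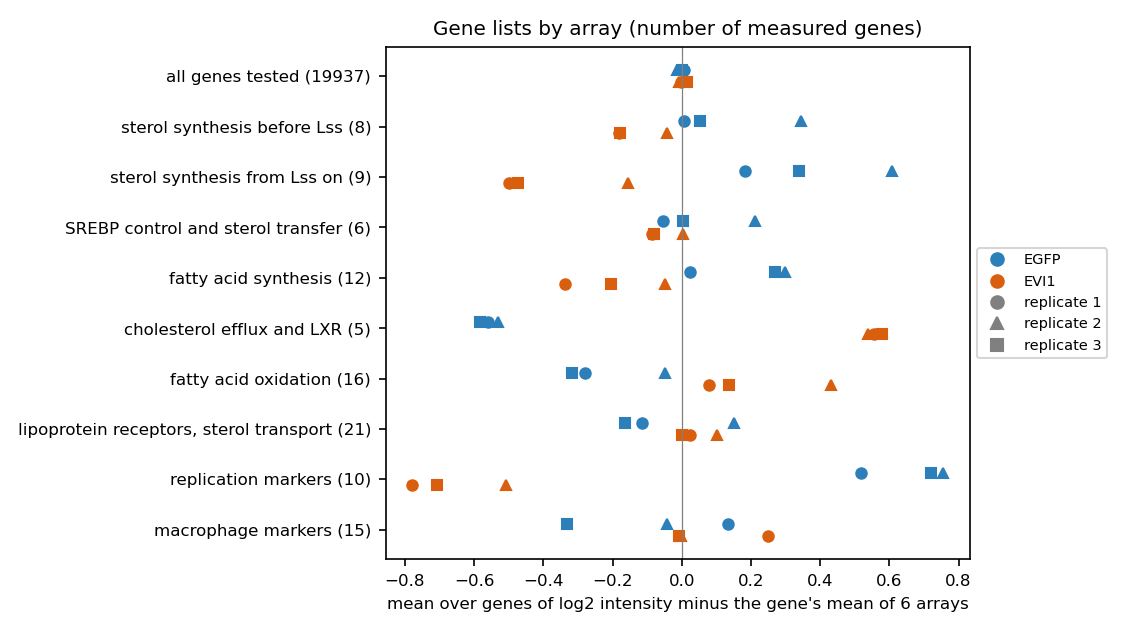
Mean over the genes of each list of log2 intensity minus the gene's mean of the 6 arrays (horizontal axis), with 1 symbol per array and the number of measured genes in parentheses. The efflux list parts the groups with the least spread, sterol synthesis from Lss on and the replication markers are low in the EVI1 arrays, and fatty acid oxidation is high in them.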

How the data were processed

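Expression was measured on 6 single-colour Affymetrix arrays, 3 labelled EVI1 and 3 labelled EGFP. The deposited values are log2 intensities per probe set, made by the authors with RMA (background correction, quantile normalisation, summary of probes), per the submitters' processing notes. RMA brings arrays to a common distribution, so a change in total RNA per cell would not appear. Array medians lay between 7.24 and 7.31. For arrays there is no sequencing depth to give, and precision is set by their number. No detection calls were used.

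Of 34760 probe sets, 21640 carried 1 symbol, 1321 several and 11799 were unnamed here. The brightest probe set (highest mean over 6 arrays) represented each of 19937 genes. Identifiers of 19855 genes were found in RefSeq.

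Groups were compared with limma 3.58.1 in R 4.3.3 (lmFit, eBayes), two-sided, with Benjamini-Hochberg adjustment over all genes, after the fit had been tested on simulated data. Members and lists were chosen with earlier results of these data known, and lists are described by counts and medians. All members could be named. Outside them, names were Mecom, the 3 smallest p per related list, any small count in 1 direction and the 2 brightest markers. Other genes named outside the members (Rnf139, Mbtps1, Acss2, Slc25a1, Npc1, Npc2, Stard3, Cyp27a1, Ch25h, Abcg4, Abca7, Scarb1, Plin2, Hacd1, Hacd2 and further markers) were chosen after their values were seen. Alternatives were a replicate block, 2 filters on dim genes, 2 normalisations, averaged probe sets, trend and robust estimation, array weights, and leaving out each array.

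The labels number replicates alike in both groups. Deviations of same-numbered arrays from their group means correlated at r = 0.491, 0.269 and 0.197 across all genes. Those of differently numbered arrays correlated at -0.346 to 0.078, so every same-numbered pair lay above all of these. The labels state no pairing, so the main fit, which gave the calls and SE, had no block. The replicate number entered only the alternative fit with a replicate block.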

Additional observations from a re-analysis of the deposited data

How the results depend on the processing

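With the replicate block all calls among the 44 genes were kept, and 7 genes were added, so that 21 fell and 6 rose. The number of changed genes over the whole array was 4361 with the block and 3638 without it. Leaving out 1 array each gave 2289 to 4098 changed genes, 7 to 16 members that fell, 3 to 9 sterol synthesis genes that fell and 4 to 6 members that rose. Counts were lower without some arrays and higher without EGFP replicate 2 (4098, 16, 9 and 6), and the cause was not tested. The median difference of the efflux genes lay between 0.76 and 1.11 when 1 array was left out, and their excess over sterol synthesis between 1.21 and 1.57. Leaving out genes under the median level removed Nr1h3 and gave an efflux median of 1.41 and an excess of 1.90. The median of sterol synthesis lay between -0.45 and -0.55 in every alternative. Differences near 0 changed sign for Mvd with array weights (0.050) and when 1 array was left out for Mvd (-0.33 to 0.24), Fdft1 (-0.0971 to 0.0656), Msmo1 (-0.3715 to 0.0259) and Srebf1 (-0.1872 to 0.0125), none of which passed; the cause was not tested. Of the 20 calls, 11 held in all 14 alternatives. Further quantile normalisation or median centring moved the median of all genes by under 0.1 and reversed no member.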

Other observations

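Triglyceride storage and the isoprenoid branch moved in both directions. Among 17 measured genes of fatty acid uptake and triglyceride storage 4 rose (23.5%, against 9.06% of all genes) and 3 fell (17.6%, against 9.18%). The other 10 did not pass, and the median was 0.16. The acyltransferase Agpat3 (1.52 ± 0.20), the phosphatidate phosphatase Lpin1 (0.78 ± 0.13), the triglyceride lipase Pnpla2 (0.47 ± 0.11) and the droplet coat protein Plin3 (0.49 ± 0.13) rose by limma. The acyltransferases Gpam (-0.54 ± 0.13) and Agpat2 (-0.57 ± 0.15) and the fatty acid binding protein Fabp5 (-1.12 ± 0.29) fell. Plin2, the main droplet coat protein of non-fat cells, differed by -0.42 and passed only with a replicate block (limma adjusted p = 0.203, 0.0376 with the block).

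Of 13 measured genes that use the isoprenoids made before squalene 1 rose (7.69%, against 9.06% of all genes) and 1 fell (7.69%, against 9.18%). The other 11 did not pass, and the median was -0.03. Ggps1, which makes geranylgeranyl diphosphate, rose by 0.43 ± 0.12, and Coq2, which attaches the isoprenoid tail of coenzyme Q, fell by 0.72 ± 0.12 on the log2 scale. Nus1, a subunit of the enzyme that makes dolichol chains, differed by -0.34 ± 0.12 and did not pass.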
